A study of Mus musculus with 30 samples.

Results

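The cytosolic ribosomal protein genes were taken as all entries annotated as protein coding whose symbol begins with Rpl, Rps or Rplp followed by a digit, with the Rps6k kinase genes left out. The rule found 96 genes among the 52550 genes of the table: 58 named Rpl for the large subunit, 35 named Rps for the small subunit, and the 3 stalk genes Rplp0, Rplp1 and Rplp2. Of the 96, 85 passed the filter on low counts, in a test of 15587 genes. The members lay on 20 chromosomes, with 14 on chromosome 7 and 10 on chromosome 17. The rule also took Rps19bp1, which encodes a binding protein of RPS19, and Rpl7l1, and it took 11 copies whose symbols carry -ps, of which 6 are processed pseudogenes in GENCODE M21. It left out, among others, Fau, Rack1 and Rpsa, whose products are parts of the cytosolic ribosome, and the copy Rps4l, which the table does not call protein coding.

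Total RNA was sequenced from mouse cardiac myocytes in 6 groups of 5 libraries: exercised heterozygotes at 6 months, exercised wild type at 6 months, heterozygotes and wild type at 6 months with regular activity, and heterozygotes and wild type at 3 months with regular activity. Heterozygotes carried Myh6-Cre:DspW/F, a floxed and a wild-type allele of Dsp, the gene of the desmosome protein desmoplakin, with Cre recombinase under the Myh6 promoter, which is active in cardiac myocytes. The exercised mice were taken 3 months after endurance treadmill exercise. The labels do not say whether wild-type mice carried Cre, nor whether the 5 libraries of a group came from 5 animals, so p-values measure the spread between these libraries.

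Library totals ranged from 11232143 to 23710331 counts, and the members together 98186 to 290444 counts in each. Summed over 5 cardiac myocyte markers, the level was 38840 to 65869 CPM, that is, counts scaled to 1000000 per library, against 6.04 to 51.8 CPM for 5 macrophage markers and 0 to 1.08 CPM for 5 lymphocyte markers. Dsp averaged 848 ± 90.5 CPM in exercised heterozygotes and 1561 ± 428 CPM in exercised wild type (SD, n = 5 each), a fall with an adjusted p of 0.0287 by edgeR, while at 3 and at 6 months with regular activity it was not called (adjusted p of 0.312 and 0.657). Xist stood at 66.8 to 223 CPM in 12 libraries and at no more than 1.25 CPM in the others. These 12 were 3 in each 3-month group, 2 in each 6-month group with regular activity and 1 in each exercised group. In 3 of the 12, namely wild-type replicate 4 at 3 months and wild-type replicates 2 and 5 at 6 months, the Y-linked gene Ddx3y was also present at 0.995 to 2.27 CPM, against 44.9 to 83.5 CPM in the libraries without Xist. Exercised heterozygote replicate 4 stood apart with 1329 CPM of Nppa, the gene of atrial natriuretic peptide, against 43.7 to 164 CPM in the other 4 libraries of its group. Heterozygote replicates 1 and 2 at 3 months stood apart with snoRNAs at 0.470% and 0.454% of counts, against at most 0.0755% in every other library.

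Ribosomal proteins assemble with ribosomal RNA into the small subunit, which reads the messenger RNA, and the large subunit, which joins amino acids. Rplp0, Rplp1 and Rplp2 form the stalk of the large subunit that binds elongation factors. Their messenger RNAs commonly begin with a C followed by a run of pyrimidines, the terminal oligopyrimidine tract, through which mTOR signalling and the protein Larp1 control their translation. Many of these genes carry small nucleolar RNAs (snoRNAs), guides for the chemical modification of ribosomal RNA, in their introns.

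The start regions of members whose RNA changed are given first, because the start of the messenger RNA is the element these genes are known to share. Each is the 30 bases from 15 before to 15 from the start of the first RefSeq transcript, read along the gene strand on GRCm38.p6. Capitals mark a run of at least 5 pyrimidines that begins with C and touches the middle 11 bases. The first 8 fell with exercise in both genotypes.
Rpl13 (chr8:123102335-123102364, plus strand): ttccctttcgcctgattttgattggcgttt
Rps21 (chr2:180257364-180257393, plus strand): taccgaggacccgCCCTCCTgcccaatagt
Rpl6 (chr5:121204486-121204515, plus strand): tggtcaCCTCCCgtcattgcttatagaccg
Rpl18 (chr7:45718056-45718085, plus strand): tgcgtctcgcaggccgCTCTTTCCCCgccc
Rps9 (chr7:3704026-3704055, plus strand): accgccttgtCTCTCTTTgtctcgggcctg
Rps16 (chr7:28350674-28350703, plus strand): cccgcttctgtcgtgacgtagcactcaatg
Rpl27 (chr11:101442230-101442259, plus strand): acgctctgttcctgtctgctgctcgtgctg
Rpl37a (chr1:72711245-72711274, plus strand): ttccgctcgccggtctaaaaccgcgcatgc
The next 4 rose with exercise in wild type, though none of these calls held in every alternative fit described below.
Rps24 (chr14:24490663-24490692, plus strand): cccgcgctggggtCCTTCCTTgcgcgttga
Rps3a1 (chr3:86142654-86142683, minus strand): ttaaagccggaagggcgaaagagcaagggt
Rpl23 (chr11:97782425-97782454, minus strand): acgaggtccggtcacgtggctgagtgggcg
Rpl36a (chrX:134585639-134585668, plus strand): gtgcacccaggcaccgcctataaacttccg
Rplp2 fell with age in both genotypes, and Rpl3l is the paralog of Rpl3 found in striated muscle.
Rplp2 (chr7:141447636-141447665, plus strand): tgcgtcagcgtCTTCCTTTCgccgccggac
Rpl3l (chr17:24727811-24727840, plus strand): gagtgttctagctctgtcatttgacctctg

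RefSeq gave a start for 65 of the 96 members. A run of this kind was found at the start of 34 of the 65, or 52.3%, against 7536 of 26960 other genes. It was found in 13 of the 23 members with a start that fell with exercise in heterozygotes, in 1 of the 4 that rose with exercise in either genotype, and in 19 of the 34 other tested members. No test was made between these sets. In the 100 bases round the start, CTTTC stood on the gene strand in 50.8% of members and 14.5% of other genes. CCGGAAG stood on either strand of the 300-base promoter window in 38.5% of members and 9.86% of other genes. These are matches of letters to RefSeq starts, and the starts used in myocytes were not measured here.

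Levels of the 85 tested members differed widely between genes. Per kilobase of exon, Rplp1 stood highest at 609 CPM per kb as a mean over the 30 libraries, followed by Rps2 at 366 and Rplp0 at 348 CPM per kb. Exon length is here the union of the exons of all annotated transcripts of a gene, so levels and ranks per kb depend on the annotation. The lowest were the copies Rpl10-ps3 at 0.472 and Rpl9-ps6 at 0.745 CPM per kb, and then Rpl22l1, a paralog of Rpl22, at 1.12 CPM per kb. Rpl13a, which encodes a protein of the large subunit, stood at 2.04 CPM per kb, nearer to these copies than to most members. The 11 members that were not tested held at most 226 counts each over all 30 libraries. Rpl24, a protein of the large subunit, was among them with 112 counts in all. Rpl10l, Rpl9-ps1 and Rpl36-ps4 had no count in any library. The sources used here do not state how reads that match several copies were counted, so levels of members with near-identical copies are uncertain.

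The question of the exercise comparison is how myocytes of exercised mice differed from those of mice with regular activity at the same age. In heterozygotes, 34 of the 85 tested members fell and 1 rose with exercise, so 40.0% of the members fell, against 3.48% of all 15587 tested genes. In either direction 41.2% of the members were called, against 8.82% of all tested genes. In wild type, 13 members fell and 5 rose, so 15.3% of the members fell, against 5.05% of all tested genes, and 5.88% rose, against 4.64%. In either direction 21.2% of the members were called, against 9.69% of all tested genes. The calls are edgeR quasi-likelihood tests at an adjusted p under 0.05. The median log2 fold change of the members was -0.31 in heterozygotes, against -0.0037 over all tested genes, and -0.11 in wild type, against 0.0059. Both subunits were represented among the falls. Grouped by symbol alone, with copies and Rps19bp1 counted under their names, 16 of 48 Rpl, 17 of 34 Rps and 1 of 3 Rplp members fell in heterozygotes. In wild type 6, 5 and 2 of them did.

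**Figure D1:**
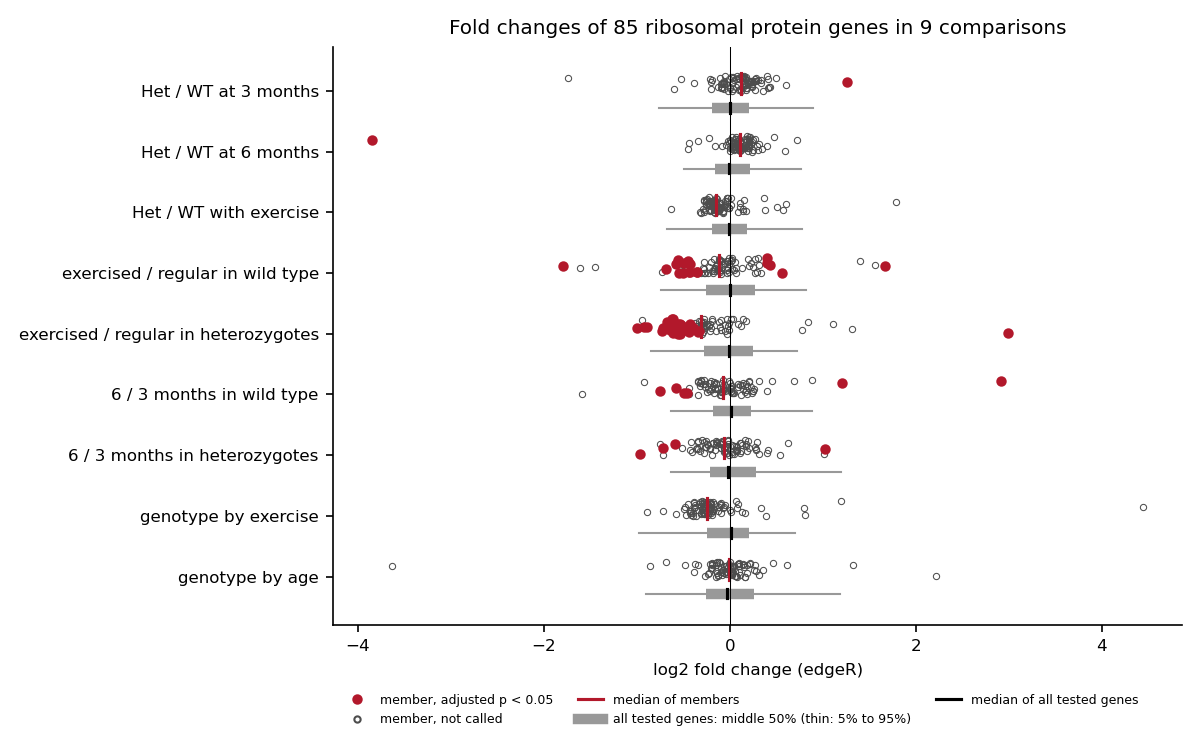
Log2 fold changes (horizontal axis, edgeR) of the 85 tested members in 9 comparisons; each circle is a gene, filled where the adjusted p was under 0.05, and the grey bars give the middle 50% and the 5% to 95% range of all 15587 tested genes. The 34 filled circles left of 0 with exercise in heterozygotes lie between -0.998 and -0.33.

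Rpl13, whose product lies in the large subunit, fell in both genotypes. It had 145, 136, 142, 104 and 106.5 CPM in exercised heterozygotes, against 241, 217, 205, 255 and 260.5 CPM in heterozygotes with regular activity. In exercised wild type it had 142, 152, 144, 138 and 129 CPM, against 235.5, 215, 198, 254 and 232 CPM in wild type with regular activity. The groups did not overlap in either genotype. The log2 fold change was -0.89 ± 0.11 (SE) in heterozygotes, with an edgeR adjusted p of 2.47e-06, and -0.68 ± 0.11 in wild type, with an edgeR adjusted p of 7.99e-05.

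Rplp1, a stalk protein, fell by 1.79 ± 0.23 (SE) on the log2 scale in wild type, the largest fall of any member there, with an edgeR adjusted p of 1.45e-05. It had 139, 126, 129.7, 106 and 113.5 CPM in exercised wild type, against 308, 317.5, 283, 607 and 615 CPM in wild type with regular activity, where the last 2 libraries stood high. In exercised heterozygotes it had 154, 145, 166, 290.2 and 155 CPM, against 335, 424, 250.4, 417 and 395 CPM in heterozygotes with regular activity, and the groups overlapped through replicate 4 of the exercised mice. The log2 fold change in heterozygotes was -0.998 ± 0.22, with an edgeR adjusted p of 0.00444, and -1.23 without that library.

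Rps21, of the small subunit, had 22.8, 26.7, 33.1, 21.0 and 18.4 CPM in exercised heterozygotes, against 43.8, 42.9, 38.1, 54.6 and 51.6 CPM in heterozygotes with regular activity. In exercised wild type it had 27.4, 32.0, 26.7, 31.9 and 33.1 CPM, against 46.4, 41.0, 35.0, 50.02 and 50.4 CPM in wild type with regular activity. It fell 1.89-fold in heterozygotes and 1.47-fold in wild type, with edgeR adjusted p of 2.32e-05 and 0.00466.

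Altogether 12 members fell in both genotypes, which is 35.3% of those that fell in heterozygotes and 92.3% of those that fell in wild type. Over all tested genes 303 fell in both, which is 55.9% of those that fell in heterozygotes and 38.5% of those that fell in wild type, and no test was made of the difference from the members. Besides Rpl13, Rplp1 and Rps21 they included Rpl6, Rpl8, Rpl18, Rpl27 and Rpl37a of the large subunit and Rps9, Rps16 and Rps20 of the small subunit. Rpl37a was 1.65-fold lower with exercise in heterozygotes and 1.35-fold lower in wild type. Rpl6 was 1.60-fold and 1.36-fold lower, and Rps16 was 1.64-fold and 1.36-fold lower, in heterozygotes first and then in wild type. Rpl8 and Rpl18 were 1.52-fold and 1.53-fold lower in heterozygotes and 1.42-fold and 1.41-fold lower in wild type. Rpl27 was 1.55-fold lower in heterozygotes and 1.45-fold lower in wild type. Rps9 and Rps20 fell the least of those named, at 1.27-fold and 1.34-fold in heterozygotes and 1.27-fold and 1.28-fold in wild type. The call of Rps20 in wild type was lost in 12 of 21 alternative settings, with an adjusted p of at most 0.153, and that of Rps9 in 5 in wild type and in 3 in heterozygotes.

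The other 22 falls in heterozygotes ranged with the rest from 1.25-fold to 2.00-fold. By the smallest p they were led by Rpl36, 1.57-fold lower, and Rpl32, 1.44-fold lower, both of the large subunit. The ubiquitin fusion gene Rps27a was 1.48-fold lower, and Rps6, the substrate of the S6 kinases, was 1.32-fold lower with an edgeR adjusted p of 0.0443, a call lost in 8 of 21 alternative settings, where the adjusted p was at most 0.119. The 22 also included Rpl10, Rpl12, Rpl23a, Rpl27a, Rpl28, Rpl35a and Rpl37 of the large subunit and Rps2, Rps3, Rps7, Rps12, Rps18, Rps19, Rps23 and Rps27 of the small subunit. Of all 34 falls in heterozygotes, 23 were called under each of the alternative settings tried, as were 8 of the 13 in wild type. Without exercised heterozygote replicate 4, 26 members fell and 1 rose. Rplp0, the stalk base, fell 1.49-fold in wild type with an edgeR adjusted p of 0.00477, and was not called in heterozygotes. It had 419, 479, 366, 411.5 and 516 CPM in exercised wild type, against 697, 625, 574, 787 and 584 CPM in wild type with regular activity, and it averaged 420.3 ± 34.7 CPM in exercised heterozygotes and 479 ± 84.2 CPM in heterozygotes with regular activity.

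**Figure D2:**
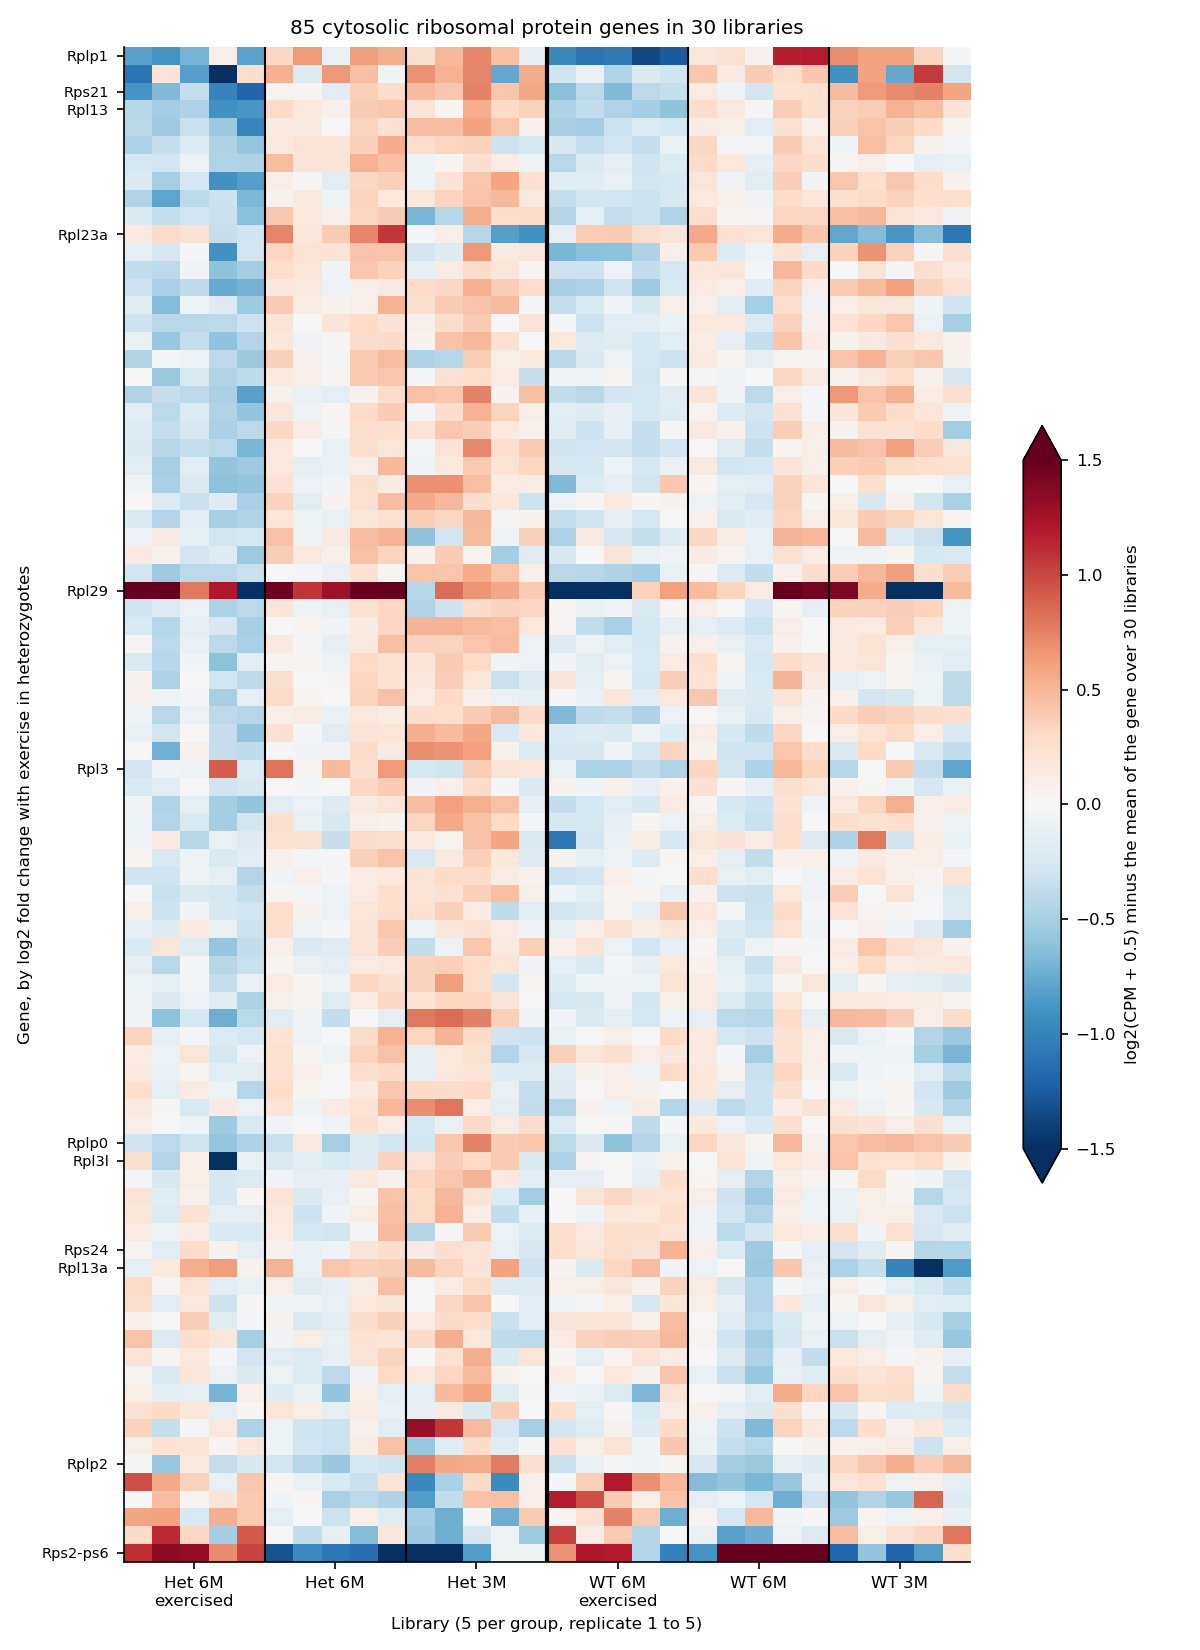
Level of each of the 85 tested members (rows, ordered by the log2 fold change with exercise in heterozygotes) in each of the 30 libraries (columns, 5 per group), as log2(CPM + 0.5) minus the mean of the gene over all libraries, with 12 rows labelled. The upper rows are lower, in blue, in exercised heterozygotes, and Rpl29 and Rps2-ps6 stand out by differences between single libraries.

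The 5 members that rose with exercise in wild type were Rps3a1 and Rps24 of the small subunit, Rpl23 and Rpl36a of the large subunit, and the copy Rpl23a-ps3. Rps24 had 172, 162, 173, 168 and 207 CPM in exercised wild type, against 151, 125, 99.5, 146 and 130.2 CPM in wild type with regular activity, and did not overlap. The rise was 1.35-fold, with an edgeR adjusted p of 0.0167. In exercised heterozygotes Rps24 averaged 146 ± 19.2 CPM, against 152 ± 17.01 CPM in heterozygotes with regular activity. Rps3a1 was 1.32-fold, Rpl23 1.32-fold and Rpl36a 1.48-fold higher in exercised wild type. Rpl23a-ps3 was 3.18-fold higher but lay at 0.972 to 2.92 CPM in exercised wild type, against 0.432 to 0.872 CPM in wild type with regular activity. Each of these 5 calls was lost under at least 1 alternative setting. That of Rps3a1 was lost in 11 of 21 and that of Rpl23 in 8 of 21, with an edgeR adjusted p of at most 0.124 and 0.144. Rpl36a was lost in 3 of 21, Rps24 in 2 of 21 and Rpl23a-ps3 in 1 of 20. When the 3 libraries with both Xist and Ddx3y were left out, 1 member rose and 8 fell.

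The direct test of whether exercise acted differently in the genotypes called none of the 85 members, and 2 of all 15587 genes (0.0128%). By the unadjusted p, 16 members were under 0.05, and the DESeq2 Wald test called 1 member. The shares of all tested genes by these measures are not reported here, so these counts have no background beside them. The median of the members' interaction log2 values was -0.25, against 0.01 over all tested genes, and 72 of 85 were negative. The larger number of falls in heterozygotes was thus not shown to differ, gene by gene, from that in wild type.

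Other measures of the libraries moved with exercise. The members held 0.725% ± 0.0834 of all counts in exercised heterozygotes and 1.11% ± 0.106 in heterozygotes with regular activity (SD, n = 5 each). In exercised wild type they held 0.753% ± 0.148, and in wild type with regular activity 1.03% ± 0.116. Of the counts of nuclear protein-coding genes alone the members held 1.08% ± 0.0750 in exercised heterozygotes, 1.47% ± 0.160 in heterozygotes with regular activity, 1.10% ± 0.115 in exercised wild type and 1.29% ± 0.146 in wild type with regular activity. Counts of genes encoded by mitochondrial DNA made up 29.4% ± 6.12 and 28.3% ± 10.6 of the total in exercised heterozygotes and exercised wild type, against 19.9% ± 6.32 and 15.6% ± 1.68 in heterozygotes and wild type with regular activity. Small non-coding RNAs took 1.15% ± 0.116 of counts in exercised heterozygotes and 2.30% ± 0.384 in heterozygotes with regular activity, and 1.06% ± 0.260 in exercised wild type and 2.15% ± 0.203 in wild type with regular activity. With mitochondrial transcripts and the 10 most abundant other genes removed, 35 members fell in heterozygotes and 13 in wild type. The tested members had a median exon length of 1734 bases, against 4569 bases for other tested protein-coding genes. With a trend on exon length taken out of each library, 28 members fell in heterozygotes and 12 in wild type, and the median log2 fold change was -0.25 in heterozygotes and -0.02 in wild type. With a term for high Xist in the fit, 33 fell in heterozygotes and 13 in wild type. The shares of all tested genes called under these settings are not reported here, so these counts have no background beside them. In bulk RNA, fewer cells of a type and less RNA per cell cannot be told apart, and a separate processing of the exercised libraries cannot be told apart from exercise.

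Summed cardiac myocyte markers had a median of 52855 CPM in exercised heterozygotes and 41928 CPM in heterozygotes with regular activity, and of 61429 CPM in exercised wild type and 50610 CPM in wild type with regular activity. Of the 5 markers, Tnnt2 rose in both genotypes and Ryr2 in heterozygotes. None of the 5 markers each of fibroblasts, endothelial cells, macrophages, pericytes and erythroid cells was called by edgeR with exercise in either genotype. In heterozygotes their median log2 fold changes were -0.59, -0.46, -0.80, -0.49 and -0.68, in that order. There 1 endothelial and 1 pericyte marker had positive values, and none of the other lists did. In wild type the medians were -0.25, 0.32, -0.17, -0.05 and -0.02, in the same order. Of the 4 tested adipocyte markers none was called by edgeR with exercise in either genotype. Their median log2 fold change was 1.58 in wild type, where 4 were positive, and -0.23 in heterozygotes, where 0 were positive. Macrophage markers summed to 6.87 to 44.5 CPM in exercised heterozygotes and 24.9 to 51.8 CPM in heterozygotes with regular activity. The part of these differences in the members' falls was not tested.

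**Figure D3:**
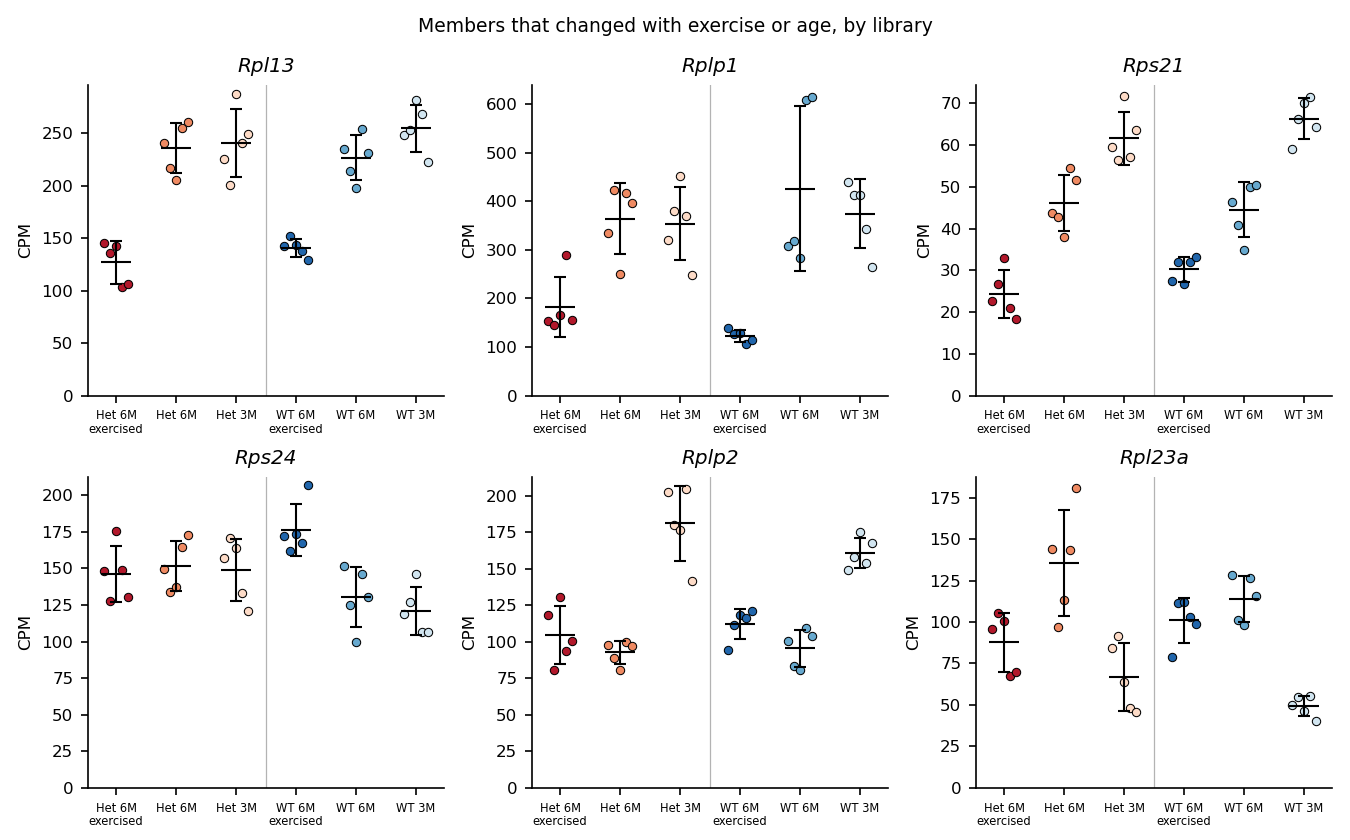
CPM (vertical axis, from 0) of 6 members in each library of the 6 groups, with the mean and SD as bars (n = 5). Rpl13, Rplp1 and Rps21 are lower in exercised than in regular-activity libraries of both genotypes, Rps24 is higher in exercised wild type, and Rplp2 is lower and Rpl23a higher at 6 than at 3 months.

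The age comparison sets 6-month against 3-month myocytes of mice with regular activity, so its 6-month libraries are those that also served as the baseline for exercise. In heterozygotes, 1 member rose and 3 fell, 1.18% and 3.53% of the 85, against 1.46% and 1.96% of all tested genes, and 4.71% against 3.43% in either direction. In wild type, 2 rose and 4 fell, 2.35% and 4.71%, against 0.398% and 0.462%, and 7.06% against 0.86% in either direction. Rpl23a, a large-subunit protein near the exit tunnel, rose in both genotypes. It had 144, 96.8, 113, 143 and 181 CPM in heterozygotes at 6 months, against 84.3, 91.5, 63.9, 48.4 and 45.7 CPM in heterozygotes at 3 months. In wild type it had 128, 101, 97.9, 126 and 115 CPM at 6 months, against 49.9, 54.5, 46.6, 55.1 and 40.3 CPM at 3 months. No library of one age overlapped the other in either genotype, and the rise was 2.03-fold in heterozygotes and 2.31-fold in wild type, with edgeR adjusted p of 0.000584 and 0.000142.

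Rplp2, a stalk protein, fell with age. It had 98.1, 88.9, 80.7, 99.8 and 97.3 CPM in heterozygotes at 6 months, against 203, 179.8, 177, 205 and 141 CPM in heterozygotes at 3 months. In wild type it had 101, 83.8, 80.9, 109 and 104 CPM at 6 months, against 149, 158, 175, 154 and 168 CPM at 3 months. The fall was 1.95-fold in heterozygotes and 1.68-fold in wild type, with edgeR adjusted p of 3.95e-06 and 0.000307, and the ages did not overlap. Rplp0 and Rps29 also fell in heterozygotes, 1.51-fold and 1.65-fold, and Rpl12, Rps20 and Rps21 fell in wild type, 1.41-fold, 1.38-fold and 1.49-fold. Without wild-type replicate 3 at 6 months, 1 member fell and 2 rose in wild type, and without heterozygote replicate 5 at 3 months, 7 fell and 1 rose in heterozygotes. Without the 3 libraries with both Xist and Ddx3y, 2 fell and 1 rose in wild type. The test of whether age acted differently in the genotypes called none of the members and none of all genes (0.0%). At an unadjusted p under 0.05 there were 6 members, and DESeq2 called 1, without the shares of all tested genes by these measures.

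Markers of other cell types moved with age in heterozygotes. The 5 fibroblast markers summed to 138 to 237 CPM in heterozygotes at 6 months and 41.2 to 81.9 CPM at 3 months, and 4 of the 5 rose. The 5 macrophage markers summed to 24.9 to 51.8 CPM at 6 months and 6.40 to 14.4 CPM at 3 months, and 2 of the 5 rose. Of 5 endothelial, 5 pericyte and 4 tested adipocyte markers, 1 each rose. The adipocyte marker that rose was the only 1 of the 4 with a positive value, and the median log2 fold change of the 4 was -1.45. Of the endothelial markers 5 and of the pericyte markers 4 had positive values. With age in wild type the 5 fibroblast markers had a median log2 fold change of 0.57 and the 5 macrophage markers of 0.19, with 4 of 5 positive in each list and none called by edgeR. Small non-coding RNAs took 2.30% ± 0.384 of counts in heterozygotes at 6 months and 4.45% ± 0.797 at 3 months, and 2.15% ± 0.203 and 3.97% ± 0.570 in wild type at 6 and 3 months. The entries of the spike-in controls in the table differed between the 3-month, 6-month and exercised libraries, so separate processing cannot be told apart from age. The part of the marker and small RNA differences in the members' changes was not tested.

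The genotype comparison asks how myocytes with Cre and a floxed Dsp allele differed from wild type. At 3 months, Rpl13a was the member that rose, 1 of 85, or 1.18%, against 0.167% of all tested genes. No member fell, against 0.0257%, and 0.192% of all tested genes were called in either direction. Rpl13a had 5.84, 5.27, 4.72, 6.40 and 3.17 CPM in heterozygotes at 3 months, against 2.78, 3.06, 1.78, 1.01 and 2.03 CPM in wild type at 3 months. The lowest heterozygote lay just above the highest wild type, and the rise was 2.39-fold with an edgeR adjusted p of 0.0498. The call was lost in 13 of 21 alternative settings, among them leaving out any of heterozygote replicates 1 and 2 or wild-type replicates 1, 3, 4 and 5. The highest adjusted p, 0.512, came from a fit of both 3-month groups alone. Rpl13a, on chromosome 7 from 45125558 to 45128761 on GRCm38, carries 4 snoRNA genes in GENCODE M21, Snord32a, Snord33, Snord34 and Snord35a, and heterozygote replicates 1 and 2 were those with the high snoRNA share. Without both, the log2 fold change was 1.16, against 1.26 with them, and the adjusted p was 0.191.

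At 6 months with regular activity, the copy Rps2-ps6 fell, 1 of 85 members, or 1.18%, against 0.103% of all tested genes. No member rose, against 0.0321%, and 0.135% of all tested genes were called in either direction. Rps2-ps6 lies on chromosome 14 from 76236691 to 76237545 on GRCm38 and is a processed pseudogene in GENCODE M21, a copy of Rps2. It had 0.593, 0.898, 0.776, 0.723 and 0.292 CPM in heterozygotes at 6 months, against 0.956, 14.6, 7.45, 7.28 and 17.9 CPM in wild type at 6 months. The groups did not overlap, with wild-type replicate 1 at 0.956 CPM just above the highest heterozygote and the other 4 wild-type libraries at 7.28 CPM or more. The log2 fold change was -3.85 ± 0.65 (SE), with an edgeR adjusted p of 0.00532. The 2 highest libraries were the 6-month ones with both Xist and Ddx3y, and without the 3 libraries of that kind the log2 fold change was -2.95 and the adjusted p 0.144. By limma-voom the log2 fold change was -3.23 and the adjusted p 0.0777. In exercised heterozygotes Rps2-ps6 had 5.27, 6.36, 6.22, 3.90 and 4.95 CPM, and it rose 7.98-fold over heterozygotes with regular activity, with an edgeR adjusted p of 0.00303. In wild type it was 7.54-fold higher at 6 than at 3 months, with an edgeR adjusted p of 0.0171. That call was lost in 5 of 21 alternative settings. Without the same 3 libraries the log2 fold change was 1.97, against 2.91 with them, and the adjusted p was 0.329. The adjusted p was 0.324 by limma-voom, 0.0997 in a fit of both groups alone, 0.0576 without wild-type replicate 5 at 6 months and 0.0528 without wild-type replicate 4 at 3 months. Macrophage markers summed to 24.9 to 51.8 CPM in heterozygotes and 8.65 to 15.9 CPM in wild type at 6 months, with none called by edgeR, and their part in this result was not tested. Rps2 itself averaged 807 ± 64.6 CPM in heterozygotes and 671 ± 124 CPM in wild type at 6 months with regular activity. In exercised heterozygotes Rps2 averaged 527 ± 109.9 CPM and in exercised wild type 479 ± 116 CPM.

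With exercise, none of the 85 members was called between heterozygotes and wild type. Of all tested genes, 0.225% were higher, 0.18% were lower and 0.404% were called in either direction. At an unadjusted p under 0.05 there were 8 members, without the share of all tested genes at that threshold, and DESeq2 called none. The median log2 fold change of the members between heterozygotes and wild type was 0.13 at 3 months, 0.11 at 6 months and -0.14 with exercise, against -0.0019, -0.0035 and -0.0081 over all tested genes. At 3 months 61 and at 6 months 73 of the 85 values were positive, and with exercise 70 were negative. Members moved together within single libraries: 5 of the 85 lay above the mean of their group in wild-type replicate 3 at 6 months and 79 in replicate 4. The SD between single libraries of a group, in the mean log2 level of the members, was 0.138, about the size of these medians. The medians compare groups of 5 libraries, so this SD is not their error, and no test of the medians was made.

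**Figure D4:**
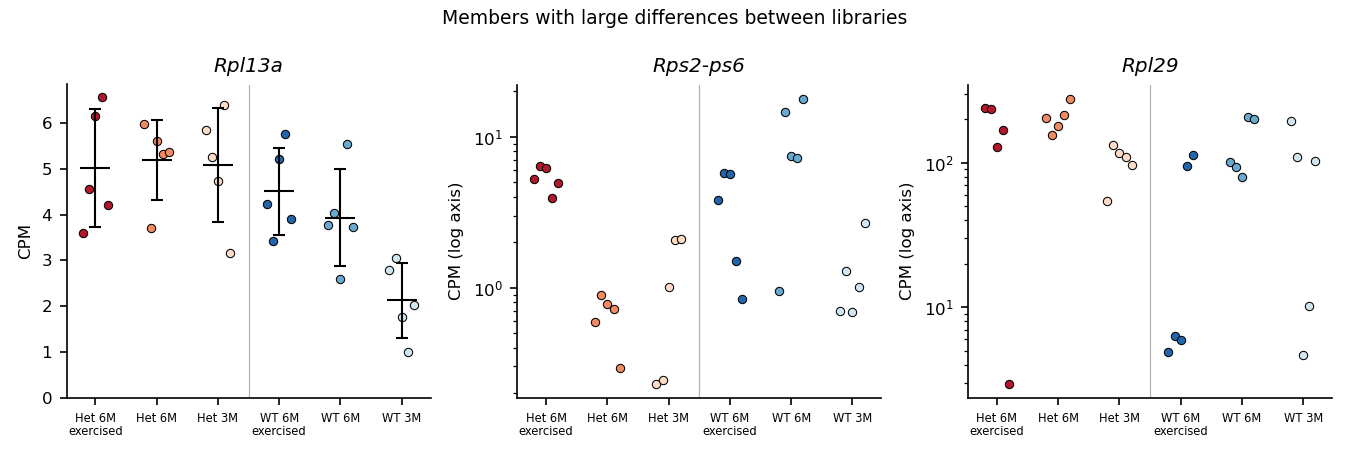
CPM of Rpl13a (from 0, with mean and SD, n = 5), Rps2-ps6 and Rpl29 (both on log axes) in each library of the 6 groups. Rps2-ps6 stands above 7 CPM in 4 of the 5 wild-type libraries at 6 months, and Rpl29 lies at 2.95 to 10.2 CPM in 6 libraries and above 50 CPM in all others.

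Rpl29, a large-subunit protein whose gene lies on chromosome 9 from 106429454 to 106431568 on GRCm38, differed widely between libraries of the same group and is named because of that pattern, after its values were seen. It had 239.5, 234, 128, 169.7 and 2.95 CPM in exercised heterozygotes and 4.93, 6.34, 5.91, 94.2 and 113 CPM in exercised wild type. In heterozygotes and wild type at 6 months it lay between 80.1 and 277 CPM. At 3 months it lay between 54.6 and 132 CPM in heterozygotes, and in wild type it had 195.7, 109, 4.70, 10.2 and 102 CPM. The 6 low libraries belonged to 3 groups, and the low values were 40 to 162 counts. No comparison called Rpl29.

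Paralog pairs differed in how far the second copy was read. Rpl3l, the striated muscle paralog, stood at 61.9 CPM per kb and Rpl3 at 17.5 CPM per kb as means over the 30 libraries. Their annotated exon lengths were 1643 and 3175 bases, which enter these values. The log2 ratio of Rpl3l to Rpl3 counts averaged 0.49 ± 1.18 in exercised heterozygotes, 1.18 ± 0.37 in exercised wild type, 0.36 ± 0.34 in heterozygotes at 6 months, 0.90 ± 0.42 in wild type at 6 months, 1.07 ± 0.42 in heterozygotes at 3 months and 1.37 ± 0.46 in wild type at 3 months (SD, n = 5 each). In an exact two-sided permutation test, no difference passed the threshold after adjustment over the 7 comparisons. The smallest p was 0.0238 for age in heterozygotes, adjusted to 0.167, where 0.00794 was the smallest p the test could give. The difference there was -0.71. Exercised heterozygote replicate 4 had 34.5 CPM of Rpl3l and 100.04 CPM of Rpl3, the reverse of the other 4 libraries of its group, which had 72.7 to 117 CPM of Rpl3l and 43.9 to 52.0 CPM of Rpl3. The same library had 8370 CPM of Myh7, the slow myosin heavy chain, against 631 to 1140 CPM in the other 4.

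**Figure D5:**
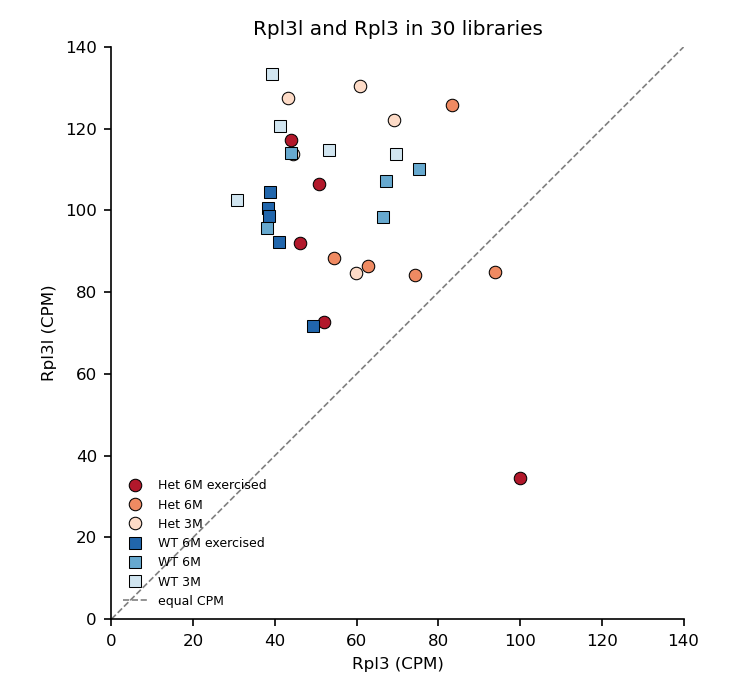
Rpl3l (vertical axis, CPM) against Rpl3 (horizontal axis, CPM) in each of the 30 libraries, with a dashed line of equal CPM. All libraries but 2 lie above the line; those below are exercised heterozygote replicate 4, at 100.04 and 34.5 CPM, and heterozygote replicate 1 at 6 months, at 93.8 and 84.97 CPM.

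Of the other pairs, Rpl22 had 48.4 to 80.8 CPM and Rpl22l1 0.355 to 4.67 CPM over the 30 libraries. Rps27 had 47.5 to 122 CPM and Rps27l, which is known as a p53 target, 9.23 to 22.6 CPM. Rpl7 had 86.7 to 166 CPM and Rpl7l1 35.9 to 57.0 CPM. Rpl36a had 19.2 to 42.1 CPM, Rpl39 14.1 to 56.9 CPM and Rpl10 112 to 235.3 CPM, while Rpl36al and Rpl39l held 71 and 16 counts over all libraries and Rpl10l none. The X-linked Rps4x had 106 to 210.5 CPM. Among these, Rpl36a rose with exercise in wild type and Rps27 and Rpl10 fell with exercise in heterozygotes, and no other gene of these pairs was called in any comparison.

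The members that host snoRNA genes in GENCODE M21 numbered 29, all tested. With exercise in heterozygotes 16 of the 29 hosts and 18 of the 56 other tested members fell, and in wild type 4 of the 29 and 9 of the 56 fell. The median log2 fold changes with exercise were -0.39 for hosts and -0.29 for the others in heterozygotes, and -0.12 and -0.07 in wild type. The difference between hosts and others was not tested.

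Genes around the ribosome had calls in both directions with exercise. Of the 3 ribosome components outside the symbol rule, Rack1, a scaffold on the small subunit, fell 1.54-fold in heterozygotes and 1.498-fold in wild type, and Fau, the fusion gene of a small-subunit protein, fell 1.45-fold in heterozygotes. Of 80 tested ribosome biogenesis genes, 5 rose and 1 fell in heterozygotes, and 5 rose and 3 fell in wild type. Ncl, the nucleolar protein nucleolin, rose 1.77-fold in heterozygotes and 2.02-fold in wild type, and Nop10, of the H/ACA snoRNA complex, fell 1.54-fold and 1.64-fold. Of 38 initiation factors, 5 rose and 2 fell in heterozygotes and 7 rose and 4 fell in wild type, led by Eif5b, the subunit-joining factor, which rose 2.02-fold in heterozygotes and 2.32-fold in wild type. Of 14 elongation and termination factors, 3 rose in heterozygotes and 2 in wild type, among them the termination factor Gspt1 and the recycling factor Abce1 in both. The counts in these lists stand against 5.34% of all tested genes that rose and 3.48% that fell in heterozygotes, and 4.64% and 5.05% in wild type.

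Regulators and other genes with a pyrimidine tract showed mixed calls with exercise. Of 24 regulators of ribosome supply, 2 rose and 1 fell in heterozygotes and 2 rose and 2 fell in wild type. Larp1 rose 1.29-fold in heterozygotes and 1.38-fold in wild type, and Maf1, the repressor of RNA polymerase III, fell 1.36-fold and 1.47-fold. Of 23 terminal oligopyrimidine genes outside the symbol rule, 1 rose and 2 fell in heterozygotes and 3 rose and 2 fell in wild type. The 2 that fell in heterozygotes were Rack1 and Fau, and Rack1 was 1 of the 2 in wild type, so these are the ribosome components counted above. Of 77 tested genes for mitochondrial ribosomal proteins, 2 rose and 10 fell in each genotype, and Mrps34 fell 2.42-fold in heterozygotes and 2.01-fold in wild type. Of the 85 cytosolic members, 34 fell in heterozygotes and 13 in wild type. Over all tested genes 5.34% rose and 3.48% fell with exercise in heterozygotes, and 4.64% rose and 5.05% fell in wild type. These shares are the background for each list of this paragraph. With age in heterozygotes 7 of the 77 mitochondrial ribosomal genes fell and none rose, by edgeR, against 1.96% of all tested genes that fell and 1.46% that rose. None of the 77 was called with age in wild type or between genotypes. Between genotypes, 1 gene of all these lists was called, Rps6ka2, a ribosomal S6 kinase gene. With exercise its level was lower in heterozygotes, 1.92-fold below wild type, at an edgeR adjusted p of 0.0399.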

How the data were processed

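The data are bulk RNA sequencing of cardiac myocytes from mice, in 30 libraries of 6 groups. The labels' protocols name the miRNAeasy mini kit, a ribosome depletion step and strand-specific paired-end TruSeq libraries. Trim Galore, HISAT2, featureCounts and the mm10 build appear in the submitters' processing notes. Versions, annotation release, strand setting and the handling of reads that match several places are not given in the sources used here. The authors deposited unnormalized read counts for every gene in a table of 52573 entries, of which 23 spike-in entries were left out.

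Members, lists and alternatives were chosen with earlier results of these data known. Genes were filtered with filterByExpr (minimum count 10), scaled by TMM and tested with edgeR 4.0.16 (quasi-likelihood, robust, limma 3.58.1, R 4.3.3) in 1 fit of all 30 libraries, with Benjamini-Hochberg adjustment over 15587 genes and calls at 0.05. DESeq2 1.42.0 was an alternative. CPM used TMM-scaled library sizes. The ratio of Rpl3l to Rpl3 added 0.5 to each count. The tests were checked on simulated data with known changes between genotypes at 6 months. Of changes of 1.5-fold, 2-fold and 4-fold, 22.4%, 80.6% and 98.5% were recovered, and 5 of 15387 unchanged genes were called. Small changes can thus go uncalled. Positions and exon lengths, the latter as the union of exons over all transcripts, are those of GENCODE M21, on the same build as mm10. Start sequences are RefSeq's.

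The rule for named genes took up to 10 called members per comparison and direction by smallest p, 8 paralog pairs, Rplp0, Rplp1, Rplp2, Rps6, Rps27a and Rpl13a, the 3 highest and lowest tested members per length, up to 3 called genes of each other list and Dsp. Some items that the rule took are not reported here. Other members named were chosen after their values were seen. The libraries carry replicate numbers, which were checked and did not pair them.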

Additional observations from a re-analysis of the deposited data

Results flagged for a closer look

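A single library lay far from the other 4 of its group, by the gap to its nearest neighbour, in 12 of the 276 groups of member values screened; chance alone flags about 1 in 20 groups. Exercised heterozygote replicate 4 was high for Rplp1 at 290.2 CPM and for Rpl3 at 100.04 CPM. Exercised wild-type replicate 5 was high for Rps20 at 57.7 CPM, Rps24 at 207 CPM and Rps2 at 681 CPM, and exercised wild-type replicate 1 was high for Rpl3 at 49.3 CPM. In heterozygotes at 6 months, replicate 3 was low for Rpl8 at 182 CPM, replicate 5 was high for Rpl3l at 125.8 CPM and replicate 2 was low for Rpl13a at 3.72 CPM. Wild-type replicate 5 at 6 months was high for Rpl23a-ps3 at 0.872 CPM. At 3 months, heterozygote replicate 4 was low for Rpl22l1 at 0.963 CPM and wild-type replicate 5 was low for Rps6 at 156 CPM.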

How the results depend on the processing

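The members' median log2 fold changes moved by less than 0.138 in all comparisons and settings. That value is the SD between single libraries of a group, not the error of a difference between groups. The median of age in wild type turned from -0.070 to 0.0053 without replicate 3 at 6 months. The 1 member called between genotypes at 3 months became 0 without the low-count filter, under the replicate block, with own groups only, with limma-voom, with the Xist term added after seeing the data, without the 3 libraries with Xist and Ddx3y, without heterozygotes 1 and 2, and at a threshold of 0.01. The count at 6 months, which is Rps2-ps6, became 0 without the 3 libraries; by limma-voom it stayed 1, but Rps2-ps6 was lost and Rplp0 was called in its place (adjusted p of 0.0359). With exercise in wild type, 9 members were called without the 3 libraries and 8 at 0.01, and in heterozygotes 22 at 0.01. With age in wild type, 10 were called by DESeq2, 3 without the 3 libraries and 2 at 0.01, and in heterozygotes 14 by limma-voom, 9 by DESeq2 and 7 with the length trend removed. The test of genotype by exercise called 1 by DESeq2 and 1 without heterozygotes 1 and 2 at 3 months, and that of genotype by age 1 by DESeq2. The cause of these changes was not tested, except that a stricter threshold calls fewer genes by construction. For every alternative setting, and for fits with libraries left out, the shares of all tested genes called are not reported here. Whether the members' excess over all genes changed under them is thus not shown.

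Leaving out 1 library at a time, the calls ranged from 0 to 1 for genotype at 3 months, 13 to 17 for exercise in wild type, 27 to 41 for exercise in heterozygotes, 3 to 7 for age in wild type, 3 to 8 for age in heterozygotes and 0 to 1 for genotype by exercise, the last being 1 without wild-type replicate 1 at 6 months. The difference in the Rpl3l to Rpl3 log2 ratio with exercise in heterozygotes ranged from -0.10 to 0.63, and reversed to -0.10 without replicate 1 and -0.017 without replicate 3 of the exercised mice. Replicate numbers gave correlations from -0.252 to 0.154 between same-numbered libraries, and at most 2 of 5 numbers in a comparison correlated best with their own, so they do not pair the libraries. Under the replicate block 15 members were called with exercise in wild type, 31 with exercise in heterozygotes, 5 with age in wild type and 4 with age in heterozygotes. For single called members, the call was lost 56 times and held 658 times in the other settings, lost 92 times and held 558 times when a library was left out, and none reversed.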
